A study of Rattus norvegicus with 24 samples.

Results

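The cultures were searched for the genes that mark microglia, the resident macrophages of the brain, and for the chemokine and interleukin genes that such cells and their neighbours use to signal. The genes were those whose symbol, in a table of genes lower in DMSO-treated oligodendrocytes (OLs) than in DMSO-treated oligodendrocyte precursor cells (OPCs), named a chemokine or its receptor, an interleukin or its receptor, a Toll-like receptor, an Fc gamma receptor, complement C1q, a gene of the rat major histocompatibility complex (RT1) or 1 of a list of microglial genes. The rule found 7 genes among the 1999 identifiers of that table and the 32883 genes listed in the count files: Cxcl12, Il1r1, Il17rb, Il20rb, Cd14, Cd68 and RT1-T24-1. Because the table was itself a result of these libraries, the 7 genes were chosen by their lower level in DMSO-treated OLs than in DMSO-treated OPCs, which is given below as a description only. The microglial name rested on Cd14 and Cd68: of 33 microglial and macrophage markers, these 2 had an identifier in the tables used here, and the defining markers Aif1, Csf1r, Cx3cr1, Tmem119 and P2ry12 were not analysed here.

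Primary OPCs came from the cerebral cortices of newborn Sprague Dawley rat pups, and each of the 4 replicate numbers was taken as 1 litter, since the study's methods treat independent litters as biological replicates and the library names give same-numbered libraries a shared date. Replicates 2 and 3 carry the same date and are told apart there by a letter. In the study's preparation, microglia were shaken off the mixed glial flasks before the OPCs were collected, and the OPC suspension was then plated briefly on a bacteriological dish. Untreated OPCs were kept for 24 h in proliferation medium with fibroblast growth factor, platelet-derived growth factor and neurotrophin 3, without vehicle or drug. DMSO-treated OPCs received 0.04% DMSO, the vehicle, for those 24 h, and DTG-treated OPCs received 8 µM dolutegravir (DTG), an integrase inhibitor used against HIV, for the same time. The 3 OL groups were treated in the same way through the 24 h of proliferation and then for a further 72 h in differentiation medium, which lacked those growth factors and held thyroxine. Each of the 6 groups had 4 polyA-selected RNA-seq libraries, 24 in all, with 13241279 to 18499994 reads assigned to genes per library. The untreated OPC and OL libraries of replicate 3 had been counted on another annotation than the other 22 libraries, with other exonic lengths for each of the 7 genes, so comparisons with untreated cells used the 21651 identifiers in both. Levels are given as CPM, the count over the gene-assigned total of the library, with totals scaled by the trimmed mean of M values, and are listed from replicate 1 to replicate 4.

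CXCL12 is a chemokine that acts through the receptors CXCR4 and ACKR3 and guides migrating cells, precursors of oligodendrocytes among them. IL-1 receptor type 1 carries the signal of IL-1, a chief inflammatory cytokine of microglia. IL-17 receptor B binds IL-25, and IL-20 receptor subunit beta is shared by the receptors for IL-19, IL-20 and IL-24. CD14 presents bacterial lipopolysaccharide to Toll-like receptor 4, CD68 is a lysosomal glycoprotein of macrophages, and RT1-T24-1 is a class I gene of RT1. Cd14 and Cd68 are macrophage markers, whereas Cxcl12 and the 3 receptor genes are also transcribed in other cells.

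The start regions of 4 of the genes are shown, each 300 bases on the strand of the gene, from 250 bases before the annotated start to 50 after it, as RefSeq gives them for the GRCr8 build. Cxcl12 was the member with the highest CPM and Il1r1 the one with the lowest ratio of OL to OPC levels, and the windows of Cd68 and Il20rb held the matches in capitals. Capitals in Cd68 mark an AP-1 motif (TGANTCA), and capitals in Il20rb mark a C/EBP motif (TTGCNNAA), each searched on both strands.
Cxcl12: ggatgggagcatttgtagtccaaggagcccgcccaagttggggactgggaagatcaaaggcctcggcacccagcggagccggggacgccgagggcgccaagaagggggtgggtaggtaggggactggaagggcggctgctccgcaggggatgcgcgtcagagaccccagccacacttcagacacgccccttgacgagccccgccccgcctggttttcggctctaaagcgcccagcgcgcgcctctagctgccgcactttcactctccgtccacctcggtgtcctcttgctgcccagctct
Il1r1: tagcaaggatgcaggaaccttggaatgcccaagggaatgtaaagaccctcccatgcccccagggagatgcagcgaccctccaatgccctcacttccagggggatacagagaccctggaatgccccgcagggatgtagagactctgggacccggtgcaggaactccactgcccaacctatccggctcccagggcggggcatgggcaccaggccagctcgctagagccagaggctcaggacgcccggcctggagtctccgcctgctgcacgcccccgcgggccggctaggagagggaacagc
Cd68: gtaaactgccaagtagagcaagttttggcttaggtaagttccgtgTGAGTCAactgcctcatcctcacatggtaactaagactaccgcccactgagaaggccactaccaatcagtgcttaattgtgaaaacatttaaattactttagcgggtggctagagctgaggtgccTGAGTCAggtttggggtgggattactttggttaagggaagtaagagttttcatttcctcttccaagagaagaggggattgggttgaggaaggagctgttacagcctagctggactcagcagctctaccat
Il20rb: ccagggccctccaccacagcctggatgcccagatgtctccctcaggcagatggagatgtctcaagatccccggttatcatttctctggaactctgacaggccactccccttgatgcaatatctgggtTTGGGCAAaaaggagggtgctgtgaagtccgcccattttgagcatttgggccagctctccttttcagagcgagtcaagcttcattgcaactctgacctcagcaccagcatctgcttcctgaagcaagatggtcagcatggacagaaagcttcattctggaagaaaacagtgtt
The Cxcl12 window lies at chr4:152060531-152060830 on the plus strand and the Il1r1 window at chr9:50034133-50034432 on the plus strand. The Cd68 window lies at chr10:54882392-54882691 and the Il20rb window at chr8:109888914-109889213, both on the minus strand.

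All 7 genes matched a start window by symbol. The AP-1 motif stood in 1 of the 7, Cd68, where it occurred 2 times, with first bases 205 and 80 bases before the start, and it stood in 7.33% of all 33469 windows of that length. The C/EBP motif stood in 1 of the 7, Il20rb, 123 bases before the start, and in 10.6% of all windows. None of the 7 windows held the searched letters for PU.1 (GAGGAAGT, in 2.42% of all windows), SOX factors (ACAAAG, in 18.8%) or a TATA box (TATAAA, in 14.2%). An E-box (CANNTG) stood in 5 of the 7 windows and in 72.1% of all windows, so no motif searched was common to the 7 genes.

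Cxcl12 (ENSRNOG00000013589, Rnor_6.0 chromosome 4, 149261044 to 149273891, plus strand) was detected in each of the 24 libraries. Its level in untreated OPCs was 11.8, 22.3, 22.5 and 26.0 CPM, and in untreated OLs 2.19, 2.51, 3.46 and 5.44 CPM. Untreated OLs were lower in 4 of 4 litters, by 6.05-fold (log2 fold change −2.60, 95% interval −3.41 to −1.78, edgeR quasi-likelihood test with Benjamini-Hochberg adjustment over all genes, adjusted p = 5.923e-04). Over all conditions the OPC and OL libraries did not overlap, but the DMSO-treated ones among them chose the gene. The share of all genes without overlap was not computed. In bulk RNA, fewer cells of a type and less RNA per cell cannot be told apart, and this holds for each difference below.

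With DTG, Cxcl12 stood at 7.90, 19.3, 19.1 and 19.9 CPM in OPCs and at 3.24, 0.792, 5.13 and 3.38 CPM in OLs. The OLs were again lower in 4 of 4 litters (log2 fold change −2.38, interval −3.30 to −1.46, edgeR adjusted p = 6e-04). The DMSO-treated libraries, which chose the gene, held 9.09, 21.5, 25.6 and 20.7 CPM in OPCs and 2.83, 2.70, 3.72 and 3.30 CPM in OLs. Within each OPC condition, litter 1 was the lowest library.

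Il1r1 (ENSRNOG00000014504, chromosome 9, 46962288 to 47036670, plus strand), the receptor gene for IL-1, had the largest difference of the 7 between the stages. Untreated OPCs held 3.96, 8.06, 13.6 and 5.63 CPM, and untreated OLs 0.0684, 0.0837, 0.0666 and 0.333 CPM, the latter from 1, 1, 1 and 6 reads. The gene was 50.4-fold lower in untreated OLs (log2 fold change −5.65, interval −6.97 to −4.34, edgeR adjusted p = 5.503e-05), in 4 of 4 litters. OL libraries held at most 6 reads of Il1r1, so the size of the fold rests on few reads. The gene passed the filter on low counts through its OPC libraries, so its p-value and its litter count do not support a direction. The same holds below for the stage differences of Il20rb, Cd14 and Cd68. Il17rb and RT1-T24-1 also needed OPC libraries to pass. The log2 fold change was −6.62 without the untreated OL library of replicate 4 and −4.98 with replicate 3 left out of both groups, and the gene was called in both cases.

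Under DTG, Il1r1 stood at 4.54, 9.47, 11.8 and 8.19 CPM in OPCs and at 0.295, 0, 0.302 and 0.362 CPM in OLs. The 0 in replicate 2 is a count of 0 reads, which allows a level of up to 0.264 CPM (3 reads, counting error only). DTG-treated OLs were 32.5-fold lower than DTG-treated OPCs (log2 fold change −5.02, interval −6.12 to −3.93), with 4 of 4 litters lower. In the DMSO-treated libraries, OPCs held 4.33, 5.60, 14 and 5.59 CPM and OLs 0.0689, 0.073, 0.243 and 0.44 CPM.

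Il20rb (ENSRNOG00000023214, chromosome 8, 108747204 to 108777717, minus strand), the shared receptor subunit for IL-20 and its relatives, had the next largest difference and the widest spread among OPCs. Untreated OPCs held 9.26, 0.875, 2.64 and 6.36 CPM, and untreated OLs 0.137, 0.0837, 0.20 and 0.111 CPM. The gene was 34.1-fold lower in untreated OLs (log2 fold change −5.09, interval −6.84 to −3.35, edgeR adjusted p = 5.754e-04), in 4 of 4 litters. This gene, too, was tested through its OPC libraries, so its p-value does not support a direction. The OPC litters themselves spanned from below 1 CPM to above 9 CPM.

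DTG-treated OPCs held 6.83, 1.11, 1.93 and 3.79 CPM of Il20rb, and DTG-treated OLs 0.368, 0.264, 0.302 and 0.241 CPM. The difference was 11.6-fold (log2 fold change −3.53, interval −5.00 to −2.06, edgeR adjusted p = 8.47e-04), and −2.93 on the log2 scale without the DTG-treated OPC library of replicate 1. DMSO-treated OPCs held 9.53, 1.43, 2.72 and 5.73 CPM, and DMSO-treated OLs 0.207, 0.073, 0.0809 and 0.367 CPM. Over the 12 OL libraries the gene had 34 reads in all, against 889 in the 12 OPC libraries.

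Il17rb (ENSRNOG00000015498, chromosome 16, 6064288 to 6077978, minus strand), the receptor gene for IL-25, varied less among OPC litters. Untreated OPCs held 7.03, 4.50, 7.30 and 8.28 CPM and untreated OLs 0.957, 0.67, 1.06 and 0.888 CPM. The gene was 7.53-fold lower in untreated OLs (log2 fold change −2.91, interval −3.63 to −2.19, edgeR adjusted p = 1.5e-04) and 5.61-fold lower in DTG-treated OLs than in DTG-treated OPCs (log2 fold change −2.49, interval −3.43 to −1.54). The 12 OPC libraries, from 3.05 to 8.28 CPM, did not overlap the 12 OL libraries, from 0.352 to 1.99 CPM. These include the DMSO-treated libraries that chose the gene, and the share of all genes without overlap was not computed.

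Cd14 (ENSRNOG00000017819, chromosome 18, 29560365 to 29562153, minus strand) and Cd68 (ENSRNOG00000037563, chromosome 10, 56268720 to 56270640, minus strand), the 2 macrophage markers, were low at both stages. Cd14 held 1.73, 3.94, 2.81 and 2.52 CPM in untreated OPCs, from 31, 63, 50 and 38 reads, and 0.547, 0.586, 0.599 and 0.166 CPM in untreated OLs, from 8, 7, 9 and 3 reads. It was 5.93-fold lower in untreated OLs (log2 fold change −2.57, interval −3.55 to −1.59, edgeR adjusted p = 1.742e-03) and 3.21-fold lower in DTG-treated OLs than in DTG-treated OPCs (log2 fold change −1.68, interval −2.52 to −0.84). Litters were lower in 4 of 4 pairs in both comparisons, although over all 24 libraries the lowest OPC library, 0.878 CPM, lay below the highest OL library, 0.98 CPM.

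Cd68 held 1.17, 2.00, 2.41 and 0.928 CPM in untreated OPCs and 0.478, 0.0837, 0.40 and 0.222 CPM in untreated OLs. It was 5.37-fold lower in untreated OLs (log2 fold change −2.42, interval −3.57 to −1.28, edgeR adjusted p = 5.122e-03) and 4.91-fold lower in DTG-treated OLs than in DTG-treated OPCs (log2 fold change −2.30, interval −3.34 to −1.25). The sum of Cd14 and Cd68 ran from 2.01 to 6.29 CPM over the OPC libraries and from 0.388 to 1.36 CPM over the OL libraries. Both markers were detected in each of the 24 libraries, Cd68 with as little as 1 read. Both were tested between the stages through their OPC libraries, so their p-values do not support a direction.

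RT1-T24-1 (ENSRNOG00000032596, chromosome 20, 3242492 to 3282523, plus strand) had the smallest difference of the 7 in untreated and in DTG-treated cultures. Untreated OPCs held 4.74, 3.44, 6.79 and 3.18 CPM and untreated OLs 1.23, 0.167, 1.80 and 0.499 CPM, a 4.88-fold lower level (log2 fold change −2.29, interval −3.47 to −1.10, edgeR adjusted p = 8.404e-03). Replicate 3 was the highest library in both groups, and there the other annotation gave the gene 5415 exonic bases instead of 1142. With replicate 3 left out of both groups the log2 fold change was −2.55. Under DTG the gene was 2.64-fold lower in OLs (log2 fold change −1.40, interval −2.25 to −0.55, edgeR adjusted p = 8.677e-03). RT1 class I genes have close copies and only uniquely mapped reads were counted, so the level of this gene is uncertain.

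**Figure D1:**
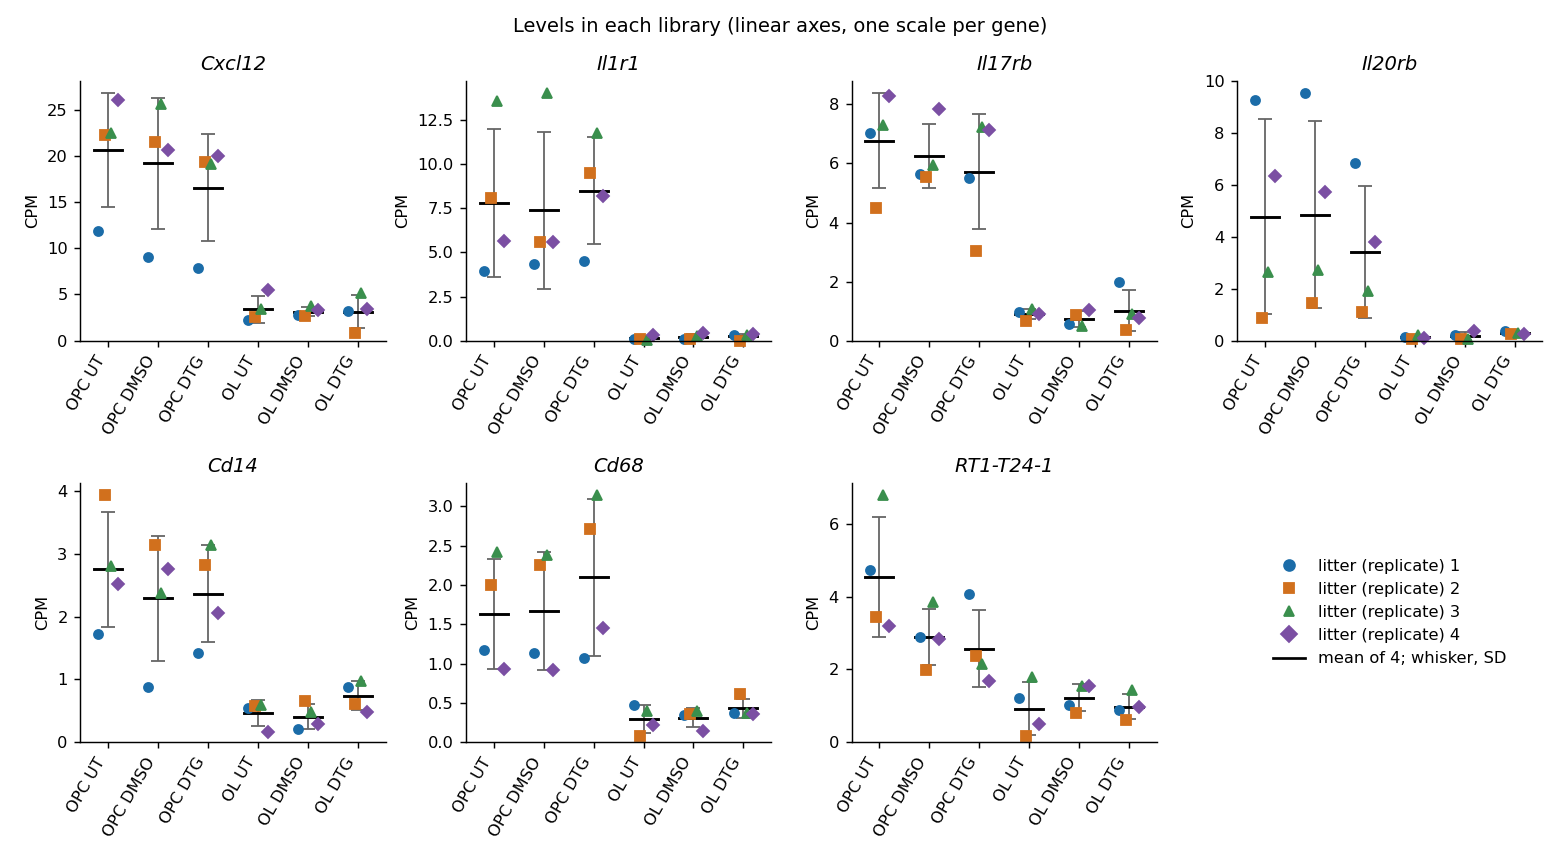
Level of each gene (CPM, linear axes from 0, 1 scale per gene) in the 24 libraries by group, where UT is untreated, points are libraries marked by litter, black lines are means of 4 libraries and whiskers are SDs. The 12 OPC libraries lie above the 12 OL libraries for Cxcl12, Il1r1, Il17rb, Il20rb and Cd68, and Cd14 and RT1-T24-1 overlap. The DMSO-treated libraries chose the genes, and the share of all genes without overlap was not computed. The lack of overlap is therefore a description only.

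Each of the 7 genes was called lower (adjusted p under 0.05 and more than 1 on the log2 scale) in untreated OLs than in untreated OPCs, where 13.4% of the 12158 genes tested were called lower. Each was also called lower in DTG-treated OLs than in DTG-treated OPCs, where 22.8% of 13171 genes were. These libraries were not used to choose the genes, but they came from the same 4 litters. Il1r1, Il20rb, Cd14 and Cd68 passed the filter on low counts through their OPC libraries, and a gene that does so had to be lower in OLs. Il17rb and RT1-T24-1 needed OPC libraries to pass as well. Their lowest OL libraries held 8 and 2 reads in untreated cultures and 4 and 7 reads under DTG. For all of these genes neither the counts nor the p-values support a direction, and the fold changes describe its size. In the DMSO-treated libraries, which chose the genes, log2 fold changes ran from −5.14 for Il1r1 to −1.25 for RT1-T24-1, 7 of 7 were past the same limits, and 18.5% of genes were called lower.

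**Figure D2:**
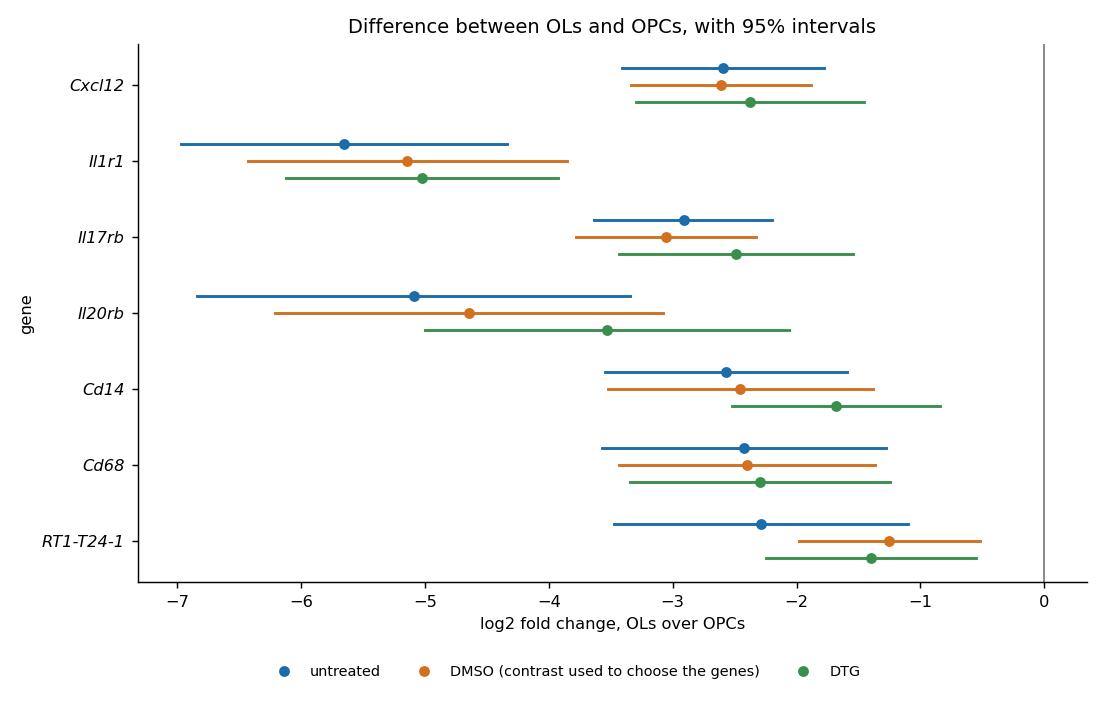
Log2 fold change of OLs over OPCs for each gene in untreated, DMSO-treated and DTG-treated cultures, with points for edgeR estimates and lines for 95% intervals. Each interval lies below 0, with the largest differences for Il1r1 and Il20rb, and the DMSO values chose the genes and carry no test. All genes but Cxcl12 needed OPC libraries to pass the filter on low counts, so their intervals do not support a direction.

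Levels of markers of other cell types also differed between the stages. Apart from the OL markers, these markers had an identifier mostly through the table of genes lower in DMSO-treated OLs, so their direction is not independent of the choice of genes. The summed level of the OPC markers Cspg4 and Pdgfra ran from 540.6 to 1154 CPM in OPC libraries and from 131.9 to 365.4 CPM in OL libraries, and that of the OL markers Enpp6, Mbp and Mog from 108.5 to 343.6 CPM in OPCs and from 1747 to 11570 CPM in OLs. Of 10 pericyte and fibroblast markers, the 4 with an identifier (Acta2, Anpep, Fn1 and Rgs5) summed to 79.8 to 112 CPM in OPCs and 12.5 to 18.7 CPM in OLs. The 5 of 8 neuronal markers with an identifier (Dcx, Map2, Nefl, Snap25 and Stmn2) summed to 186 to 636 CPM in OPCs and 93.0 to 204 CPM in OLs. Sox9, the 1 of 9 astrocyte markers with an identifier, ran from 190 to 294 CPM in OPCs and from 75.6 to 133 CPM in OLs, and none of 7 endothelial markers had one. At both stages, every one of these sums was above that of Cd14 and Cd68 in the same stage, and the part of these cells in the results was not tested.

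Per kilobase of exon, the 7 genes were within a narrow range in untreated OPCs. Mean levels, highest first, were 4.01 ± 3.68 CPM per kilobase for Il20rb (SD, n = 4), 3.54 ± 1.15 for Cxcl12, 2.80 ± 1.19 for RT1-T24-1, 2.18 ± 0.518 for Il17rb, 1.83 ± 0.796 for Il1r1, 1.59 ± 0.54 for Cd14 and 1.30 ± 0.536 for Cd68. Neighbours in that order differed by less than the larger of their SDs. Genes farther apart did differ, with Cxcl12 above Cd14 and above Cd68 in 4 of 4 libraries. In untreated OLs Cxcl12, at 0.585 ± 0.28 CPM per kilobase, and RT1-T24-1, at 0.498 ± 0.404, were highest and not told apart by their spread, and Il1r1 was lowest at 0.0342 ± 0.0335. Replicate 3 was divided there by the exonic lengths of its own annotation. In DMSO-treated and DTG-treated OLs RT1-T24-1 had the highest mean, 1.08 and 0.853 CPM per kilobase, against 0.579 and 0.578 for Cxcl12.

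DTG was compared with DMSO within each stage. The DMSO-treated libraries chose the genes, by a level higher in OPCs than in OLs. The choice itself thus favours lower values with DTG in OPCs and higher values with DTG in OLs. Counts of litters in those directions do not support a direction. In OPCs none of the 7 genes was called, and the background was 0% of 13270 genes by edgeR and 0 genes by DESeq2, with 0.52% of genes at an unadjusted p under 0.05. Cxcl12 held 16.6 ± 5.78 CPM with DTG and 19.2 ± 7.07 CPM with DMSO (SD, n = 4), lower in 4 of 4 litters but within the spread (log2 fold change −0.21, interval −1.02 to 0.60, edgeR adjusted p = 0.907). Il20rb was likewise lower in 4 of 4 litters, at 3.41 ± 2.54 against 4.86 ± 3.60 CPM (log2 fold change −0.49, interval −1.90 to 0.91, edgeR adjusted p = 0.907). With the replicate block the interval for Il20rb no longer held 0 (log2 fold change −0.50, interval −0.96 to −0.05, edgeR unadjusted p = 0.0331), but the gene was not called (edgeR adjusted p = 0.504). In the fit with the block, 6.56% of all genes had an unadjusted p under 0.05. For both genes the lowest and the highest litter lay farther apart than the treatments within any litter.

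For the macrophage markers in OPCs, the DTG minus DMSO difference was 0.06 on the log2 scale for Cd14 (interval −0.82 to 0.93) and 0.30 for Cd68 (interval −0.66 to 1.26). It was 0.19 for Il1r1 (interval −0.73 to 1.10), −0.12 for Il17rb (interval −0.79 to 0.55) and −0.17 for RT1-T24-1 (interval −0.92 to 0.57). Without the block each interval held 0, and those of Cd68, Il1r1, Cxcl12 and Il20rb also held a 2-fold change in 1 direction.

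In OLs, Cxcl12, Il17rb and RT1-T24-1 had enough reads for the test of DTG against DMSO, and none of the 3 was called, where 0.582% of 12710 genes were. Cxcl12 held 3.13 ± 1.78 CPM with DTG and 3.14 ± 0.468 CPM with DMSO (log2 fold change 0.03, interval −0.77 to 0.83, edgeR adjusted p = 0.981). Il17rb held 1.01 ± 0.696 and 0.735 ± 0.259 CPM (log2 fold change 0.46, interval −0.58 to 1.5), and RT1-T24-1 held 0.975 ± 0.34 and 1.23 ± 0.371 CPM (log2 fold change −0.31, interval −1.09 to 0.47). RT1-T24-1 was lower with DTG in 4 of 4 litters, by less than the spread between libraries. Of the 3 genes, 0 had an unadjusted p under 0.05, and DESeq2 called 0, where it called 1.01% of all genes.

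The other 4 genes had too few reads in OLs for this test. Cd14 stood at 12, 7, 13 and 8 reads in DTG-treated OLs and at 3, 9, 6 and 4 reads in DMSO-treated OLs, or 0.741 ± 0.231 against 0.411 ± 0.202 CPM. The 2 groups overlapped. Cd68 stood at 5, 7, 5 and 6 reads with DTG and at 5, 5, 5 and 2 reads with DMSO. The sum of Cd14 and Cd68 was 1.25, 1.23, 1.36 and 0.845 CPM with DTG and 0.551, 1.02, 0.89 and 0.44 CPM with DMSO. It was higher with DTG in 4 of 4 litters, although the groups overlapped. Both genes were chosen by a low level in these same DMSO-treated OLs, so the count of litters does not support a direction. When the filter on low counts was left out, so that all 7 genes were tested in OLs, edgeR called 0 of them.

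Whether DTG changed the difference between the stages was tested in 1 model over the DMSO-treated and DTG-treated libraries of both stages. None of the 7 genes was called, where the background was 0% of 13734 genes by edgeR, with 2.68% at an unadjusted p under 0.05. DESeq2 called 0 of the 7 and 10 of all genes (0.0728%). The estimates for the interaction were 0.81 on the log2 scale for Cd14 (interval −0.62 to 2.24), 0.60 for Il17rb (interval −0.68 to 1.89) and 1.15 for Il20rb (interval −1.85 to 4.14). The others were 0.27 for Cxcl12, 0.16 for Il1r1, 0.14 for Cd68 and −0.11 for RT1-T24-1, each with an interval that held 0. The model holds the stage difference in DMSO-treated libraries that chose the genes, so the choice itself favours positive estimates. With the replicate block, the estimate for Il20rb was 1.15 with an interval of −0.22 to 2.52, and none of the 7 was called.

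DMSO alone was compared with no treatment. None of the 7 genes tested in OPCs and none of the 3 tested in OLs was called, with a background of 0% at both stages by edgeR and 0.599% of OPC genes and 7.49% of OL genes at an unadjusted p under 0.05. RT1-T24-1 was lower in DMSO-treated than in untreated OPCs in 4 of 4 litters, at 2.89 ± 0.768 against 4.54 ± 1.65 CPM (log2 fold change −0.66, interval −1.46 to 0.13, edgeR adjusted p = 1). With the replicate block it was −0.65 (interval −1.10 to −0.19, edgeR unadjusted p = 0.0129, adjusted p = 0.9985) and not called. Replicate 3 of the untreated OPCs, counted on the other annotation, was the highest of these 8 libraries.

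**Figure D3:**
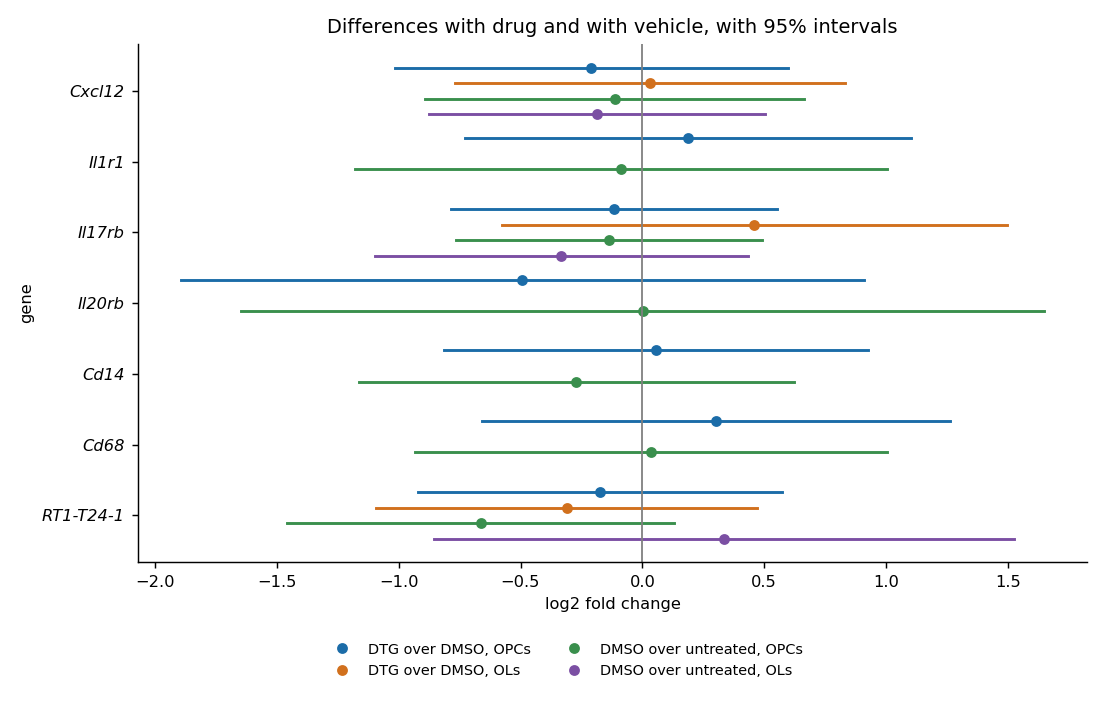
Log2 fold change of DTG over DMSO and of DMSO over untreated in OPCs and OLs, with points for edgeR estimates and lines for 95% intervals. Each interval, from the fit without the replicate block, spans 0, and genes without a line in OLs had too few reads for the test.

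Litters were then compared among the OPC libraries, a comparison chosen after the values were seen. The means below are over the OPC libraries of a litter, without the untreated library of litter 3. Il20rb stood highest in litter 1, then in litter 4, litter 3 and litter 2, in each of the 3 OPC conditions, with means over the conditions of 8.54, 1.14, 2.33 and 5.29 CPM for litters 1 to 4, a 7.50-fold range. Il1r1 followed another order, highest in litter 3 at a mean of 12.9 CPM and lowest in litter 1 at 4.27 CPM. Cxcl12 was lowest in litter 1 at a mean of 9.61 CPM, with 21.0, 22.3 and 22.2 CPM in the other litters. The macrophage markers were also low in litter 1, Cd14 at 1.35 CPM against 2.45 to 3.30 CPM elsewhere, and Cd68 at 1.12 CPM, close to its 1.10 CPM in litter 4 and below the 2.32 and 2.76 CPM of litters 2 and 3. In litter 1, therefore, Il20rb was at its highest where Cxcl12, Il1r1 and Cd14 were at their lowest.

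In a test for any difference between litters over 11 OPC libraries, with the untreated library of replicate 3 left out, 6 of the 7 genes were called (edgeR quasi-likelihood F test, adjusted p under 0.05), where 45.3% of 13666 genes were. The adjusted p was 3.063e-04 for Il20rb, 1.474e-03 for Cxcl12, 7.083e-03 for Il1r1, 9.781e-03 for Cd68, 0.0227 for Cd14 and 0.0446 for Il17rb, and 0.164 for RT1-T24-1. Without litter 1, Il20rb was the 1 gene still called, where 4.86% of genes were, and without litter 4, 3 genes were called, Cxcl12, Il1r1 and Il20rb, where 8.06% were. In OLs 0 of the 3 genes tested were called, where 17.1% of 13140 genes were, with an unadjusted p of 0.028 for Cxcl12. The 3 dishes of 1 litter share their animals, so these tests compare these 4 preparations, and litter, day of preparation and handling cannot be told apart. Litters 2 and 3, which share a date in the library names, had means of 1.14 and 2.33 CPM of Il20rb and 7.71 and 12.9 CPM of Il1r1.

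**Figure D4:**
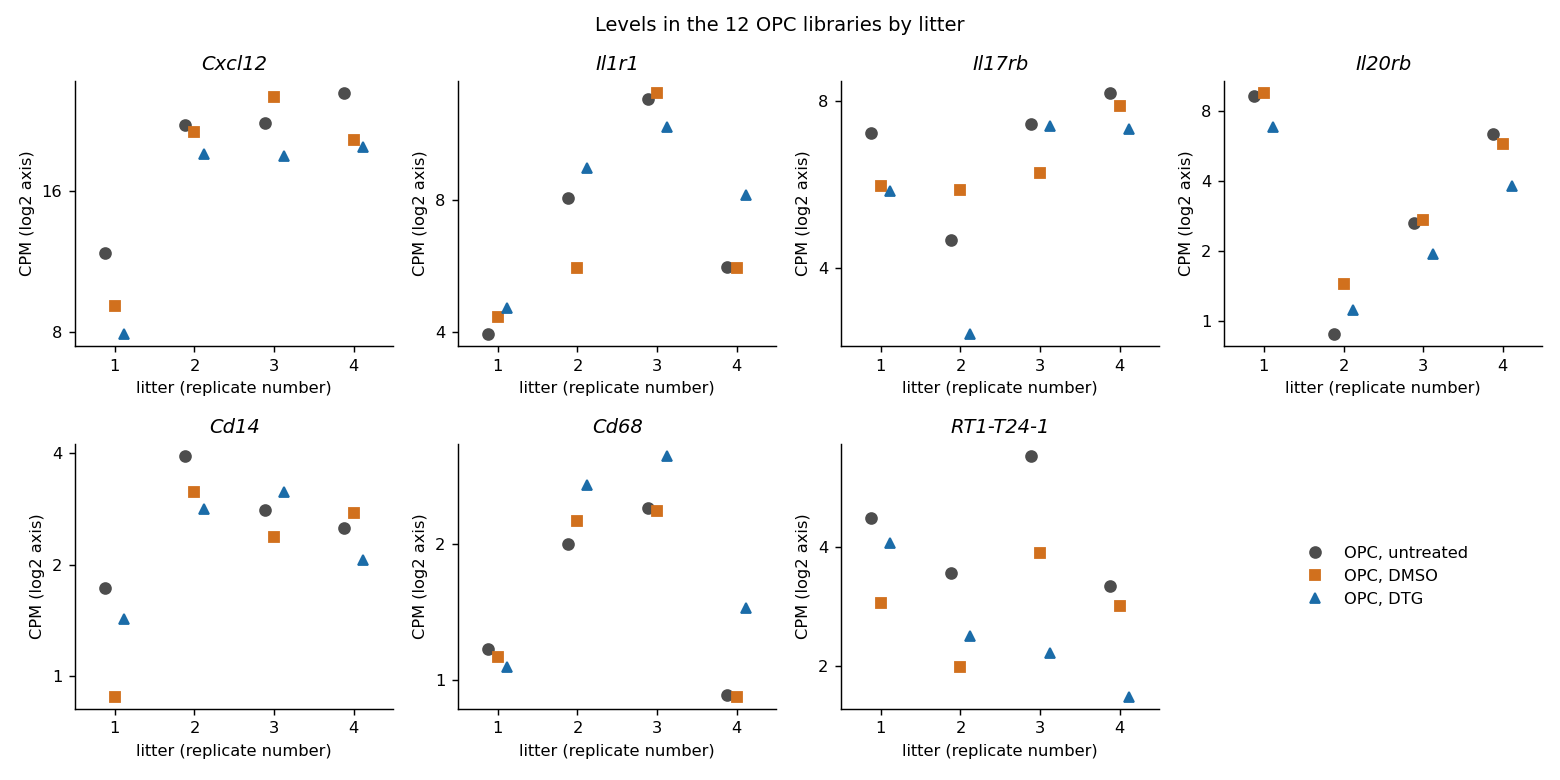
Level of each gene (CPM, log2 axis) in the 12 OPC libraries by litter, with 1 symbol per treatment. Il20rb falls in the order litter 1, 4, 3, 2 in each treatment, Il1r1 is highest in litter 3, and Cxcl12 and Cd14 are lowest in litter 1.

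Among OPC libraries, the summed level of the 4 pericyte and fibroblast markers had means of 96.4, 85.0, 99.8 and 89.4 CPM for litters 1 to 4, but its members did not move together. In untreated OPCs Acta2, a smooth muscle actin, stood at 71.2, 6.94, 16.3 and 54.2 CPM and Fn1, the matrix protein fibronectin, at 37.2, 77.4, 65.4 and 31.9 CPM. Acta2 was thus high in litters 1 and 4 and Fn1 in litters 2 and 3. The mean summed level of Cspg4 and Pdgfra was 1058, 1037, 886 and 620 CPM, that of the 5 neuronal markers 452, 350, 466 and 276 CPM, and the level of Sox9 278, 226, 194 and 246 CPM. Their part in the litter differences was not tested.

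The genes most like each member over the 22 libraries of 1 annotation were sought among the 2106 other genes with a symbol, by Pearson's r of log2 CPM. These libraries share 2 stages that differ in both genes, which alone gives high values, so r after removing the condition means is given too. The same litters recur in each condition, so the 22 libraries are not independent for that r either. The genes with a symbol were mostly those listed as lower in DMSO-treated OLs. Cxcl12 was most like Il1r1, another of the 7 (r = 0.952, and 0.82 within conditions), and then Elk3 (0.945 and 0.721). Il1r1 was most like S100a10 (0.98 and 0.66) and Nrn1 (0.976 and 0.737), Il17rb like Spsb4 (0.982 and 0.844) and Tbxas1 (0.97 and 0.749), and Il20rb like Ncs1 (0.976 and 0.864) and Igfbp4 (0.967 and 0.84). Cd14 was most like Anxa2 (0.946 and 0.866) and Trib1 (0.938 and 0.734), Cd68 like Zfp217 (0.951 and 0.785) and Tpt1 (0.941 and 0.706), and RT1-T24-1 like Rgs10 (0.89 and 0.53) and Pif1 (0.879 and 0.669). Cd14 and Cd68 were thus not each other's nearest genes, although their r within conditions was 0.64 over 11 OPC libraries.

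Other genes of the pathways were read from lists, of which most members had no identifier in the tables used here except in the list of other cytokine receptors and cell surface genes (14 of 15), and those that had one were mostly listed because they were lower in DMSO-treated OLs. The directions below are therefore not independent evidence, and over all genes tested 13.4% were called lower in untreated OLs and 22.8% under DTG. Of 34 IL-1 and Toll-like receptor genes, Il1r1 was the 1 with an identifier. Of 8 genes of the CXCL12 axis, Cxcl12 and Gnai1, a G protein subunit, had one, and Gnai1 was called lower with differentiation under DTG (log2 fold change −1.23, edgeR adjusted p = 2.391e-03) but not in untreated cells (−0.87, adjusted p = 0.114).

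Of 22 genes of the IL-17 and IL-20 receptor families and the JAK-STAT pathway, 8 had an identifier, among them Il17rb and Il20rb described above. Of the 6 tested in untreated cells 3 were called lower and 0 higher, where 13.4% of all genes were called lower. These 3 were Il17rb, Il20rb and Traf3ip2. The median log2 fold change was −1.56 against −0.10 over all genes. Of the 8 tested under DTG 7, again with Il17rb and Il20rb, were called lower and 0 higher, where 22.8% of all genes were called lower. The median there was −1.34 against −0.11, and both medians include Il17rb and Il20rb. Traf3ip2, the adaptor of IL-17 receptors, was called lower in both (−1.75 and −1.06), and Osmr, the oncostatin M receptor, was called lower under DTG (−3.33). Osmr had 14 reads in all over the DTG-treated OLs, so the size of its fold rests on few reads.

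Of 15 other cytokine receptors and cell surface genes of immune cells, 10 of 13 tested were called lower and 0 higher in untreated cells, and 10 of 14 under DTG. Over all genes 13.4% and 22.8% were called lower there, and the genes of this list were mostly chosen by a lower level in DMSO-treated OLs. Syk, a kinase of immune receptors, had a log2 fold change of −4.46 in untreated cells and −4.39 under DTG, and Cd93, a surface receptor of endothelial and myeloid cells, −5.81 and −6.21. Cd93 had 17 reads in all over the untreated OLs and 13 over the DTG-treated OLs, so the size of its folds rests on few reads. With DTG against DMSO in OLs, 1 of 9 tested was called, where 0.582% of all genes were. It was Mertk, a receptor for the clearance of dying cells, higher by 1.23 on the log2 scale (edgeR adjusted p = 0.0469). Mertk was not lower in DMSO-treated OLs (mean 7.87 CPM) than in DMSO-treated OPCs (6.15 CPM). Its identifier is therefore taken to come from the study's list for DTG against DMSO in OLs, so this call is not independent evidence.

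Of 23 genes of antigen presentation and interferon responses, 5 had an identifier. Of these, 3 were called higher with DTG than with DMSO in OLs, where 0.37% of genes were called higher. Gbp5, an interferon-induced GTPase, stood at 5.08, 3.08, 4.45 and 3.74 CPM with DTG and at 0.551, 1.02, 1.46 and 0.734 CPM with DMSO (log2 fold change 2.13, edgeR adjusted p = 7.976e-03). Casp4, a caspase that senses lipopolysaccharide inside the cell, rose by 2.35 on the log2 scale and Ifi27l2b, an interferon-induced gene, by 2.69 (edgeR adjusted p = 0.0171 and 0.0274). The groups did not overlap for any of the 3, and the share of all genes without overlap was not computed. These genes had an identifier partly because the study listed them for this comparison, which is not independent evidence, and the 7 genes described above did not include them.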

How the data were processed

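RNA was measured in 24 bulk libraries, 4 per condition, grouped by the labels. The authors mapped trimmed reads with STAR 2.5.2b (Rnor_6.0 per the labels) and deposited whole-number counts per gene of uniquely mapped reads within exons, made with featureCounts of Subread 1.5.2. The exon coordinates in 2 of the files (untreated OPCs and OLs, replicate 3) belong to another annotation whose build is not given in the sources used here, so those libraries entered comparisons through shared identifiers alone. Symbols came from the identifier and symbol columns of the study's supplementary tables (2107 identifiers), and no fold change or p-value of those tables was used. The copy of the table that chose the 7 genes was shortened and listed genes lower in OLs.

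Counts were tested with edgeR 4.0.16 (R 4.3.3, quasi-likelihood F test, default filterByExpr with a minimum count of 10, Benjamini-Hochberg adjustment over all genes tested), 1 fit per comparison on its own libraries. Calls between groups needed an adjusted p below 0.05 with more than 1 log2 unit of change, and calls between litters the adjusted p alone. The fits at their main settings were tested on simulated counts. DESeq2 1.42.0, its size factors, scaling to the ERCC spike-in (1.06 to 7.19% of counts), other filters, a replicate block, a joint fit and leaving out libraries were the alternatives. Same-numbered libraries were taken to come from 1 litter, an inference from the study's methods, which treat independent litters as replicates, and from the dates in the library names, which replicates 2 and 3 share. The correlation of their deviations from the group means ran from -0.34 to 0.82 over pairs and comparisons. The genes named are the 7 members, genes of the marker and pathway lists with an identifier, and the 2 genes most like each member. The members, lists and tests were chosen with earlier results of these data known. Promoter windows and motif counts came from RefSeq (GRCr8).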

Additional observations from a re-analysis of the deposited data

Results flagged for a closer look

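Of the 42 sets of 4 libraries (7 genes in 6 conditions), 5 held a library far from the other 3 by Dixon's criterion at 95%, where chance alone gives about 1 in 20. Cxcl12 stood at 7.90 CPM in replicate 1 of DTG-treated OPCs, with the other 3 libraries between 19.1 and 19.9 CPM. Il1r1 stood at 14 CPM in replicate 3 of DMSO-treated OPCs, with the others between 4.33 and 5.60 CPM. In both cases the same litter was the lowest or the highest in the other OPC conditions too. The remaining 3 sets were OLs with few reads. Cd14 stood at 0.166 CPM (3 reads) in replicate 4 of untreated OLs, below 0.547 to 0.599 CPM, and Il1r1 at 0.333 CPM (6 reads) in the same library, above 0.0666 to 0.0837 CPM. Cd68 stood at 0.616 CPM (7 reads) in replicate 2 of DTG-treated OLs, above 0.362 to 0.377 CPM.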

How the results depend on the processing

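The calls between the stages in untreated and in DTG-treated cultures kept their direction and their side of the threshold in each alternative run, as did the log2 fold changes of the 7 genes there. The replicate block, which pairs libraries of 1 litter, changed no call among the 7 genes in any comparison. It moved the DTG against DMSO fold change of Cxcl12 in OLs from 0.03 to -0.019 on the log2 scale and the count of all genes called in that comparison from 74 to 173. Scaling to ERCC shifted the median over genes of the stage difference to -1.0 in untreated and -1.36 in DTG-treated cultures (log2), and that of the DTG against DMSO difference to 0.59 in OLs and 0.38 in OPCs. Beside those medians it turned uncalled DTG differences to 0.33 for RT1-T24-1 in OLs, and in OPCs to 0.14 for Cxcl12, 0.35 for Il17rb and 0.26 for RT1-T24-1. It also gave 1 gene, Cxcl12, a call between litters in OLs. For the DMSO against untreated OLs it called 66 genes of 11893 lower, none of them among the 7.

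Leaving out single libraries turned the sign of uncalled differences between DTG and DMSO. In OLs Cxcl12 ran from -0.29 to 0.32 and Il17rb from -0.077 to 0.70. In OPCs Cd14 ran from -0.21 to 0.24, Cxcl12 from -0.44 to 0.024, Il17rb from -0.25 to 0.094, Il1r1 from -0.021 to 0.72, Il20rb from -1.09 to 0.083 and RT1-T24-1 from -0.49 to 0.008. The count of genes differing between OPC litters ran from 1 (without litter 1) to 6 as each litter was left out, and was 4 without the untreated libraries. The filter of CPM above 1 in at least 4 libraries left out genes too low to be tested, so those have no value there. The cause of these shifts was not tested. In OLs 4 of the 7 genes had at most 13 reads per library, which limits what a comparison between OL groups can show.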
